A study of Mus musculus with 31 samples.

Results

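The comparison described here is that of ribosome-protected fragments (RPFs, or footprints) between unstressed S51A and S51 skin squamous cell carcinoma (SCC) cells, in 4 S51A and 3 S51 vehicle libraries of the 15 RPF libraries deposited. Its members are the autosomal genes with enough footprints to be tested, which came to 9172 of the 20704 genes listed. Another 284 tested genes lay on the X or Y chromosome and 1 had no chromosome in the annotation. The cells derive from a murine skin SCC line carrying activated Hras, and all groups carry the genotype labelled HRasG12V:TgfbrIIfl/fl. The paper's list of resources instead gives both lines as HRasG12V TgfbrII D/D, the genotype it describes for fully transformed cells. The sources therefore differ on whether the TGF-β receptor gene is intact in these cells. In each, the endogenous Eif2s1 alleles were ablated with Cas9 and eIF2α was supplied by a Myc-tagged cDNA under a PGK promoter, either with serine 51 intact (S51, ISR-competent) or with alanine in its place (S51A, ISR-null). Cells of both genotypes were grown in Elow medium and received DMSO vehicle. Total RNA was sequenced from 4 vehicle samples of each genotype, and 4 RPF libraries of each genotype came from cells given the proteasome inhibitor bortezomib. The paper chose 2 single-cell clones of each genotype and states that its results are shown for pooled clones. Which clone or clones a library came from is not given in the sources used here. Genotype and clone therefore cannot be told apart in any difference below.

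eIF2 brings the initiator tRNA to the ribosome. When serine 51 of its α subunit is phosphorylated, eIF2 blocks its own exchange factor eIF2B, most initiation slows, and a few mRNAs with upstream open reading frames (uORFs), Atf4 among them, are translated more. This is the integrated stress response (ISR), and the transcription factor ATF4 then drives genes of amino acid synthesis, uptake and tRNA charging. S51A cells cannot make this phosphorylation, and the comparison asks how lines with and without the site differ when no stress is added. The mutated codon lies in coding exon 1 of 7 of Eif2s1, at chr12:78866680-78866682 on the + strand (GRCm38.p6, RefSeq). It is codon 52 of the reading frame, because the numbering that gives serine 51 leaves out the initiating methionine. The reference sequence around it is shown with the serine codon in capitals, since this is the base triplet by which the transgenes were designed to differ.

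Eif2s1, chr12:78866653-78866709: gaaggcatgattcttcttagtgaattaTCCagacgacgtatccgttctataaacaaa

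The 7 libraries held 2036482 to 4902237 footprint counts. S51 replicate 2 stood apart from its group. Its log2 CPM correlated with S51 replicates 1 and 3 at Pearson r = 0.953 and 0.946 across genes, whereas those correlated with each other at 0.988 and S51A libraries with one another at 0.983 to 0.990. It was also the shallowest of the 7, and counts and medians of gene lists that moved by more than 1.5 times or changed sign on leaving it out are given both ways. Footprint levels are given as CPM, each library's counts divided by its TMM-scaled total. Values by library are listed in replicate order, 1 to 3 for S51 and 1 to 4 for S51A. The keratinocyte markers Krt5, Krt14, Krt6a, Krt17, Trp63, Itga6, Itgb4, Cdh1 and Epcam summed to 25480 to 30600 CPM in S51 and 29990 to 32490 CPM in S51A, although Krt17 itself was read at 1.77 to 9.06 CPM. Of 9 leukocyte markers 5 were at 0 in every library, Cd3e and Lyz2 among them, Ptprc had at most 1 count, and the sums, mostly Cd68, were 8.84 to 16.9 CPM in S51 and 8.90 to 17.4 CPM in S51A. Of 8 fibroblast markers 4 were at 0 in every library, and the sums were 0.482 to 4.24 CPM in S51 and 5.27 to 9.52 CPM in S51A, carried by Pdgfra.

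Eif2s1 itself, which encodes the replaced subunit, was read at 161, 81 and 171 CPM in S51 and 212, 236, 213 and 259 CPM in S51A, with S51 replicate 2 the lowest value and no overlap between the groups. Its difference passed (log2 difference 0.73 ± 0.17 (SE), adjusted p = 0.00234) in edgeR's quasi-likelihood test, but without S51 replicate 2 the log2 difference was 0.48 and no longer above 1.5-fold. Its total RNA log2 difference was -0.07. Gene-level counts do not tell footprints of the cDNA from those of the endogenous gene and do not read the changed codon, so they do not check the genotype labels. Of the 21 tested genes for eIF2, eIF2B, the eIF2 kinases and the phosphatase, Eif2s1 was the single one called (none without S51 replicate 2), and the median log2 difference of the list was 0.04. Eif2s2, the β subunit, stood at 717, 338 and 709 CPM in S51 and 469, 486, 434 and 536 CPM in S51A (log2 difference -0.29, adjusted p = 0.179). The kinase genes Eif2ak1 (HRI), Eif2ak2 (PKR), Eif2ak3 (PERK) and Eif2ak4 (GCN2) had log2 differences of 0.04, 0.39, 0.54 and 0.10, none of which passed.

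A gene was called where the adjusted p (Benjamini-Hochberg over all tested genes) was below 0.05 and the fold above 1.5. By that rule 1456 of 9172 autosomal genes were called (15.9%), 839 higher in S51A (9.15%) and 617 lower (6.73%). Counts of called members in the gene lists below are to be read against these shares. Of the genes called higher, 368 differed by more than 2-fold and 82 by more than 4-fold, and of those called lower 167 and 30 did. Every S51A library lay beyond every S51 library in 771 of the genes called higher and 552 of those called lower, against 3027 (33%) of all genes tested. The median log2 difference of all genes was 0.01. Without S51 replicate 2 the same 9172 genes gave 777 higher and 473 lower calls, and 1045 of the 1456 calls held. At a mean of at least 50 counts the calls were 414 higher and 437 lower, and without S51 replicate 3 they were 902 and 914, so the excess of higher calls did not hold under either. Differences of both signs were found across the range of footprint level.

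**Figure D1:**
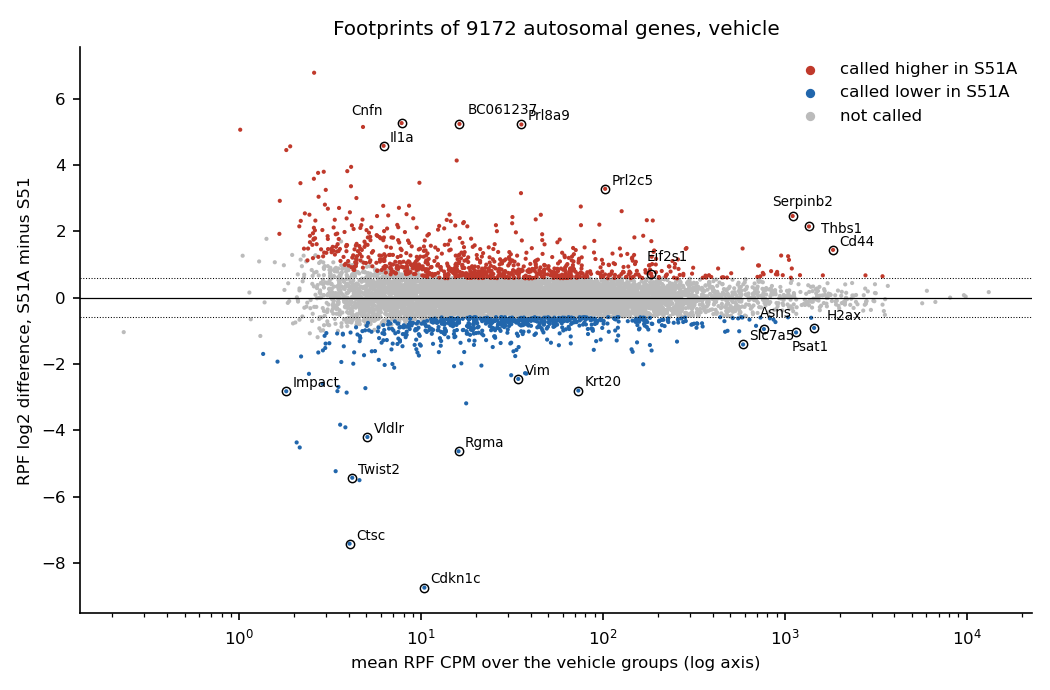
Each point is 1 of 9172 autosomal genes, with its mean RPF CPM over the vehicle groups on a log axis and its fitted log2 difference (S51A minus S51) on the y axis. Red marks the 839 genes called higher in S51A and blue the 617 called lower, dotted lines mark 1.5-fold, and fitted values of genes with 3 or fewer counts in every library of a group, such as Cdkn1c, depend on the fit's prior and are not measured sizes.

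The ATF4 targets, genes of the ISR's amino acid response, formed the list with the lowest median. Of 35 tested members 24 fell in S51A and none rose, and the median log2 difference was -0.81. Without S51 replicate 2, 22 fell and the median was -0.78. Of the 35, 2 had 3 or fewer counts in every library of one group, Vldlr among them in S51A. Such genes passed the filter through other libraries, so their direction was largely set by how they entered. With bounds in place of their fitted values the list median was still -0.81. Slc7a3, Atf3, Stc2, Fgf21 and Bcat1 had too few footprints to be tested. For many of these genes the promoter holds the C/EBP-ATF response element, searched here as TGATGNAAN on both strands. Of the 35 target genes on the list with a promoter in the RefSeq table (250 bases before to 50 after a start, GRCm38.p6), 12 held it (34.29%), against 1215 of all 27025 genes (4.5%), and by promoter the shares were 26.09% and 3.95%. The list was drawn from known targets, so that share is a description of the list. Matches in 6 members that fell, and in 1 that did not pass (Chac1), are shown because ATF4 is known to act through this element. They are pattern matches, at which binding of ATF4 was not tested. The element is in capitals, with 10 bases either side. Of the other genes holding it, Nupr1 and Herpud1 fell, Slc7a11 was not called, and Atf3 and Fgf21 were not tested.

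Vldlr, chr19:27216809-27216837, - strand: ctaggagcgcTGATGCAACtattgctgct
Jdp2, chr12:85599373-85599401, + strand: tagccggggcTGATGCAACccgtcccgcc
Slc1a4, chr11:20332700-20332728, + strand: aggctggagaTGATGCAACgcaggaggca
Trib3, chr2:152344029-152344057, + strand: cccgcccggcTGATGTAAAcctgagctaa
Asns, chr6:7693214-7693242, - strand: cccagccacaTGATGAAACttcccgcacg
Pycr1, chr11:120643833-120643861, - strand: gccctgtgtaTGATGCAATgcacaaggct
Chac1, chr2:119351038-119351066, - strand: ctggcaggagTGATGCAACggcagggaag

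Enzymes of amino acid synthesis were among the most footprinted genes that fell. Psat1, of serine synthesis, had 1633, 1280.4 and 1742 CPM in S51 and 739, 749.9, 735 and 779.7 CPM in S51A (log2 difference -1.05 ± 0.08 (SE), adjusted p = 6.16e-09). Asns, which makes asparagine, had 1064, 936 and 1027 CPM in S51 and 519, 534, 501 and 539 CPM in S51A (log2 difference -0.95 ± 0.07, adjusted p = 1.92e-09). In both genes every S51A library lay below every S51 library. Aldh18a1, the first enzyme of proline synthesis from glutamate, had 272, 317 and 244 CPM in S51 and 92.3, 88.3, 83.6 and 102 CPM in S51A (log2 difference -1.59 ± 0.10, adjusted p = 1.62e-10), and the last, Pycr1, had a log2 difference of -0.81. Shmt2 and Mthfd2, of mitochondrial one-carbon metabolism, both fell, Shmt2 by a log2 difference of -1.01, from 702, 886 and 660.1 CPM in S51 to 373, 371, 371 and 369 CPM in S51A. Gpt2 (alanine transaminase, -1.49), Cth (cysteine synthesis, -0.64), Aldh1l2 (-0.76) and Psph (serine synthesis, -0.63) also passed, Psph not without S51 replicate 2. Phgdh, which opens the serine pathway, had 629.7, 885 and 627 CPM in S51 and 482, 465, 531 and 486 CPM in S51A, and its log2 difference of -0.54 (adjusted p = 3.93e-04) stayed under 1.5-fold.

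Amino acid transporters were split. Slc7a5 and Slc3a2, the light and heavy chains of one exchanger of large neutral amino acids, both fell. Slc7a5 had 758, 1077 and 731 CPM in S51 and 318, 303, 359 and 307 CPM in S51A (log2 difference -1.41 ± 0.11 (SE), adjusted p = 3.64e-09), and Slc3a2 1050.4, 1277 and 997 CPM in S51 and 678, 645, 713 and 626 CPM in S51A (log2 difference -0.73). For both genes S51 replicate 2 was the highest of the 7 libraries. Slc1a4, a carrier of small neutral amino acids, had 47.7, 55.5 and 42.7 CPM in S51 and 14, 17.5, 17.4 and 13.8 CPM in S51A (log2 difference -1.62 ± 0.15), and Slc6a9, a glycine carrier, a log2 difference of -1.26. The cystine carrier Slc7a11 (-0.51, adjusted p = 0.00665), the glutamine carrier Slc38a2 (0.20, adjusted p = 0.064) and the cationic carrier Slc7a1 (0.30, adjusted p = 0.00568) were not called, and the last 2 were the only ones of these carriers with a positive difference.

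Regulators on the list followed the enzymes. Atf5, a transcription factor whose own mRNA carries regulatory uORFs, had 48.4, 68 and 37 CPM in S51 and 13.1, 12.4, 15.7 and 17.2 CPM in S51A (log2 difference -1.76 ± 0.22 (SE), adjusted p = 2.84e-06). Eif4ebp1, whose product 4E-BP1 restrains cap-dependent initiation, had 179, 329 and 154 CPM in S51 and 72.3, 72.9, 69.6 and 66.8 CPM in S51A (log2 difference -1.63 ± 0.18). Trib3, a pseudokinase, had 88.4, 101 and 62.6 CPM in S51 and 25.6, 32, 29 and 34 CPM in S51A (log2 difference -1.43 ± 0.18), and Ddit4, an inhibitor of mTORC1, a log2 difference of -1.05. All S51A values of these 4 genes lay under all S51 values. Vldlr, a lipoprotein receptor, had 12, 6.75 and 10.2 CPM in S51 and 0, 0.632, 0.828 and 0.405 CPM in S51A and at most 3 counts in every S51A library, so that it was at least 9.95-fold lower. The stress factors Nupr1 (-1.56), Jdp2 (-1.94), Herpud1 (-0.94), Cebpb (-0.78) and Sesn2 (-0.62) fell as well, the last 2 not without S51 replicate 2.

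Some well known ISR genes were not called. Ddit3 (CHOP) had 5.3, 7.72 and 5.22 CPM in S51 and 6.06, 5.06, 5.8 and 6.27 CPM in S51A (log2 difference -0.03 ± 0.39), and Chac1, a glutathione-degrading enzyme, had 34.6, 45.3 and 24.8 CPM in S51 and 25.6, 28.7, 43.5 and 37.4 CPM in S51A (log2 difference -0.01 ± 0.21), with overlapping groups in both. Differences within these standard errors were not detectable at this depth. Among 10 tested mRNAs known for regulatory uORFs, Atf5 was the one called and the median log2 difference was -0.06 (2 lower and -0.10 without S51 replicate 2). Atf4 had 212, 181 and 174 CPM in S51 and 107, 116, 129 and 151 CPM in S51A, with every S51A library below every S51 library, and its log2 difference of -0.58 ± 0.11 (adjusted p = 6.55e-04) fell just short of 1.5-fold. Without S51 replicate 2 it was -0.60 and passed. Ppp1r15b, a subunit of the eIF2α phosphatase, had a log2 difference of -0.35 (adjusted p = 0.0151). Ppp1r15a, its stress-induced counterpart, had a log2 difference of 0.01 at about 2.01 ± 0.658 CPM in S51A (mean ± SD, n = 4).

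Cytosolic tRNA synthetases, which charge tRNAs and several of which are ATF4 targets, showed 6 lower and no higher among 20 tested, with a median log2 difference of -0.47 (8 lower without S51 replicate 2). Aars had 606, 677 and 604 CPM in S51 and 306, 317, 304 and 307 CPM in S51A (log2 difference -1.03 ± 0.07 (SE), adjusted p = 1.68e-09). Nars had 1069, 889.6 and 1045 CPM in S51 and 661, 665, 616 and 663 CPM in S51A (log2 difference -0.62 ± 0.07). Yars, Sars, Mars1 and Iars had log2 differences of -0.81, -0.77, -0.67 and -0.65, and in all 6 the groups did not overlap. At the other end of the list stood Qars at 0.19.

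**Figure D2:**
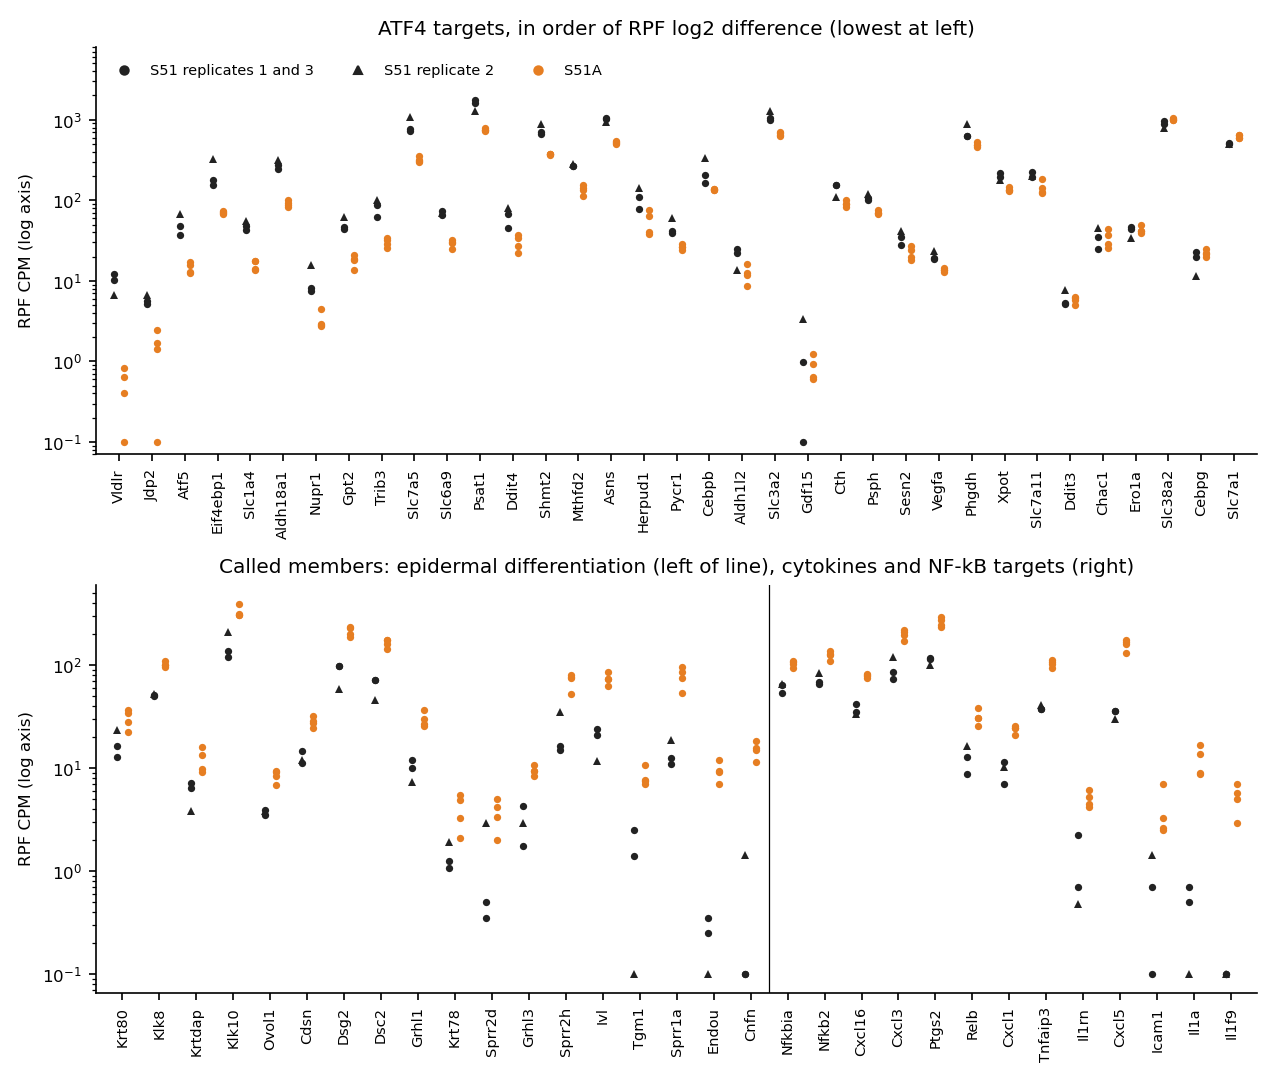
RPF CPM on a log axis in each vehicle library, S51 in black (triangles for replicate 2) and S51A in orange, with counts of 0 drawn at 0.1 CPM. The upper panel holds the 35 tested ATF4 targets in order of log2 difference, from Vldlr to Slc7a1, and the lower panel the 18 called epidermal differentiation genes and the 13 called cytokine and NF-kB genes. S51A libraries lie below S51 libraries over most of the upper panel and above them over the lower.

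Among the genes that rose, epidermal differentiation genes had 18 members higher and none lower of 26 tested, with a median log2 difference of 1.16 (20 higher without S51 replicate 2, with the same median). These encode the cornified envelope, its crosslinking and the suprabasal junctions. Sprr1a, an envelope precursor, had 12.4, 18.8 and 10.9 CPM in S51 and 75.1, 94.8, 84.9 and 52.8 CPM in S51A (log2 difference 2.50 ± 0.24 (SE), adjusted p = 8.32e-08). Ivl, involucrin, had 24, 11.6 and 21.1 CPM in S51 and 72.3, 86.2, 73.3 and 62.5 CPM in S51A (log2 difference 1.92 ± 0.21), with the lowest S51A library at more than 2 times the highest S51 library. Tgm1, the transglutaminase that crosslinks them, had 1.41, 0 and 2.48 CPM in S51 and 6.99, 7.58, 10.8 and 7.49 CPM in S51A (log2 difference 2.36 ± 0.52). Cnfn, cornifelin, had 0, 1.45 and 0 CPM in S51 and 14.9, 15.8, 18.2 and 11.5 CPM in S51A and was at least 13.9-fold higher, and Endou was at least 8.64-fold higher (9.32, 12, 7.04 and 9.11 CPM in S51A). The desmosomal cadherins Dsg2 and Dsc2 had log2 differences of 1.29 and 1.33, the kallikreins Klk8 and Klk10 of 0.97 and 1.11, and the differentiation regulators Grhl1, Grhl3 and Ovol1 of 1.58, 1.74 and 1.15. Krt10, the keratin of the spinous layer, had a log2 difference of -0.14 and was not called, and Krt1, Lor and Flg had too few footprints to be tested. Cnfn and Endou, with 3 or fewer counts in every S51 library, passed the filter through other libraries and could hardly come out lower. At a mean of at least 50 counts, where fewer genes were tested, 10 of the list rose. Sprr genes are near-identical copies of one another, so the split of reads among them is uncertain.

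Of 15 tested inflammatory cytokines and NF-kB targets 13 rose and none fell, with a median log2 difference of 1.35 (13 and 1.42 without S51 replicate 2). Another 23 listed genes, Il6, Tnf and Il1b among them, were not tested for lack of footprints. Of those tested, 3 had 3 or fewer counts in every library of one genotype, Il1a and Il1f9 among them in S51. Such genes passed the filter through other libraries and could hardly come out lower. At a mean of at least 50 counts, where fewer genes were tested, 7 of the list rose. Il1a, which encodes interleukin 1α, had 0.707, 0 and 0.497 CPM in S51 and 16.8, 13.7, 8.7 and 8.9 CPM in S51A and was at least 11.1-fold higher. Il1f9, interleukin 36γ, had no count in any S51 library and 6.99, 5.06, 2.9 and 5.67 CPM in S51A, at least 4.75-fold higher, and its receptor gene Il1rl2 had 0.354, 0.482 and 0.994 CPM in S51 and 9.32, 7.16, 8.28 and 5.67 CPM in S51A (log2 difference 3.36 ± 0.49 (SE), adjusted p = 2.44e-05). The neutrophil chemokine Cxcl5 had 35.4, 29.9 and 35.5 CPM in S51 and 175, 159, 165 and 129 CPM in S51A (log2 difference 2.21 ± 0.17). Ptgs2, the inducible cyclooxygenase, had 116, 99.9 and 114 CPM in S51 and 294, 271, 243 and 233 CPM in S51A (log2 difference 1.24 ± 0.12). Tnfaip3 and Nfkbia, feedback inhibitors of NF-kB, had log2 differences of 1.44 and 0.77, and Relb and Nfkb2, of the alternative pathway, of 1.35 and 0.79. The leukocyte marker sums given above overlapped between the genotypes, and the part of such cells in these differences was not tested. Of 15 interferon-stimulated genes tested, Stat2 (1.03) and Irf7 (1.19) rose (13.3%, against 9.15% of all genes). Irf7 had a mean of 3.44 ± 0.584 CPM (SD, n = 4) in S51A, the list median was 0.12, and 23 members were not tested.

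Cholesterol synthesis had 10 members higher and 1 lower of 22 tested, with a median log2 difference of 0.45 (9, 1 and 0.37 without S51 replicate 2). Hmgcs1, an early enzyme of the mevalonate pathway, had 71.1, 51.1 and 71.5 CPM in S51 and 172, 182, 194 and 184 CPM in S51A (log2 difference 1.49 ± 0.12 (SE), adjusted p = 7.48e-09), and every S51A library lay above every S51 library. Further along the pathway Fdft1 (1.47), Sqle (1.13), Cyp51 (1.17) and Msmo1 (1.39) rose, while Lss (-0.23), Mvk (-0.07) and Fdps (0.45) were not called. Insig1, which holds the SREBP complex back, had a log2 difference of 0.87. Idi1 (0.69) was called only with S51 replicate 2, where it was read at 26.9, 6.75 and 29.1 CPM in the S51 libraries.

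Keratinocyte and adhesion genes moved in both directions. Of 26 basal keratinocyte genes 6 rose and 2 fell (median log2 difference 0.20). Cd44, the hyaluronan receptor, had 1083, 802 and 1079 CPM in S51 and 2774, 2747, 2701 and 2539 CPM in S51A (log2 difference 1.44 ± 0.09 (SE), adjusted p = 2.05e-10), and Krt16, a keratin of activated epidermis, 323, 300.1 and 300.4 CPM in S51 and 855, 988, 853 and 753 CPM in S51A (log2 difference 1.49 ± 0.13). Cdh3, P-cadherin, fell from 404, 468 and 404 CPM in S51 to 220.1, 228, 249 and 211 CPM in S51A (log2 difference -0.91 ± 0.09), and Krt15 by a log2 difference of -1.06. Integrins and focal adhesion genes gave 5 higher and 1 lower of 26 (median 0.07), and 5 and none with a median of 0.16 without S51 replicate 2. Itga2, which binds collagen, had 11.7, 6.75 and 13.2 CPM in S51 and 60.1, 53.7, 49.7 and 47.4 CPM in S51A (log2 difference 2.25 ± 0.21 (SE), adjusted p = 5.27e-08), Itga6, which binds laminin, had a log2 difference of 0.88, and Itgav and Itgb5 of 0.73 and 1.44. Zyx (-0.66) was the 1 lower and was not called without S51 replicate 2. Of 22 matrix genes 4 rose and none fell (median 0.19): Thbs1, Serpinb2, Col7a1 and Lama3. The median was 0.30 without S51 replicate 2. Of 9 tested mesenchymal genes 3 fell and 1 rose (median -0.07, and 0.07 without S51 replicate 2). Vim, vimentin, had 60.1, 65.6 and 47.9 CPM in S51 and 12.1, 12.4, 8.28 and 8.9 CPM in S51A (log2 difference -2.45 ± 0.19), Sparc, a matrix protein, had 617, 756 and 560.2 CPM in S51 and 324, 314, 340.0 and 311 CPM in S51A, and Twist2, a transcription factor, was at least 8.51-fold lower, whereas Cdh2, N-cadherin, rose (0.77). Another 13 on that list, Fn1 and Zeb1 among them, had too few footprints. The fibroblast marker sum given above, carried by Pdgfra, was higher in S51A, the opposite side to Vim and Sparc, and its part in these differences was not tested.

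TGF-β and BMP pathway genes gave 5 higher and 3 lower of 23 (21.7% and 13%, median 0.18), and 5 and 1 with a median of 0.06 without S51 replicate 2. Ltbp1, which tethers latent TGF-β to matrix, had 8.49, 11.6 and 8.2 CPM in S51 and 39.6, 39.4, 47.2 and 42.1 CPM in S51A (log2 difference 2.19 ± 0.19 (SE), adjusted p = 1.91e-08), while its relative Ltbp4 had a log2 difference of -0.81. Fst and Inhba, an activin inhibitor and an activin subunit, both rose (1.43 and 1.84), Fst with 103, 101 and 106 CPM in S51 and 316, 265, 316 and 219 CPM in S51A. Bmp7, a ligand, fell (-1.29), and the BMP target Id1 (-0.59) was called only with S51 replicate 2. In the RAS-MAPK and EGF family list Erbb3 (1.16) and Ier3 (0.78) rose of 19 (10.5%, against 9.15% of all genes, median 0.14). In the Notch and Wnt list Wnt7a (0.70) rose of 18 (5.56%, median 0.05, and 0.18 without S51 replicate 2).

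Genes of metabolism and of stress responses were also grouped. Of 22 glycolysis and hypoxia genes 6 rose and none fell (median 0.27). Adm, the hypoxia-induced peptide adrenomedullin, had 8.49, 11.6 and 9.69 CPM in S51 and 53.2, 56.9, 62.5 and 41.7 CPM in S51A (log2 difference 2.43 ± 0.25 (SE), adjusted p = 2.30e-07), and the lactate exporter Slc16a3 a log2 difference of 0.85, while Hk2 (-0.45) and Pkm (-0.40) were not called. Of 41 chaperones 7 rose and none fell (median 0.24), and 5 with a median of 0.11 without S51 replicate 2. Hspb1, a small heat shock protein, had 2457, 3422 and 2165 CPM in S51 and 4211, 4335, 4493 and 3752 CPM in S51A (log2 difference 0.65 ± 0.17), and Cryab one of 1.06. Hspa5, the endoplasmic reticulum chaperone BiP, had 713, 627 and 663 CPM in S51 and 946, 1138, 869 and 1622 CPM in S51A (log2 difference 0.78 ± 0.18), and Xbp1, a transcription factor of the unfolded protein response, 27.2, 34.7 and 26.1 CPM in S51 and 40.6, 59.8, 50.5 and 73.1 CPM in S51A (log2 difference 0.99). S51A replicate 4 was the highest of the 7 libraries for both. Among 21 NRF2 targets 4 rose and 1 fell (19% and 4.76%, median 0.06, and 0.12 without S51 replicate 2). Nqo1 (1.54) and Cbr3 (1.36), both reductases, rose, and Osgin1 (-1.13) fell. Of 20 p53 targets 4 fell (median 0.01, and 0.05 without S51 replicate 2), Zmat3 (-1.02), Trp73 (-0.91), Aen (-0.68) and Sesn2, of which 2 remained without S51 replicate 2, and Cdkn1a was not called (-0.26).

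Few proliferation genes were called. Of 26 DNA replication genes 2 fell (7.69%, against 6.73% of all genes) and none rose, with 20 below 0 and a median of -0.24: Cdt1, which licenses origins, with 215, 389 and 188 CPM in S51 and 101, 96.1, 96.1 and 96.5 CPM in S51A (log2 difference -1.43 ± 0.16 (SE), adjusted p = 1.12e-06), and Ung, a uracil glycosylase (-0.94). Of 26 mitotic genes Nusap1 alone rose (0.79, 3.85% of the list, list median 0.10, and 0.03 without S51 replicate 2). Of 35 centrosome components 2 rose and 3 fell (5.71% and 8.57%, median 0.05), and without S51 replicate 2 none rose and the median was 0.0015. The lower ones were Ninl (-1.62), Cdk5rap2 (-0.72) and Plk4 (-0.68). Among 54 replication-dependent histone genes 8 fell, 47 were below 0 and 34 had an unadjusted p below 0.05, all lower (median -0.33). The lower calls were 2 without S51 replicate 2, H2bu2 (-1.44) and H4c12 (-0.65). Histone copies are near identical, and the reads were kept where they mapped with high quality, so values of single histone genes are uncertain. Ccnd1, cyclin D1, had 1452, 2317 and 1279 CPM in S51 and 1075, 1139.8, 1158 and 1047 CPM in S51A. Its log2 difference was -0.61 with S51 replicate 2 and -0.31 without it, when it was not called.

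Ribosomal proteins and proteasome subunits had few calls. None of 73 cytosolic ribosomal protein genes was called by edgeR or DESeq2 (unadjusted edgeR p below 0.05 in 2 higher and 14 lower), the median log2 difference was -0.03 (1 lower and a median of -0.07 without S51 replicate 2), and the range ran from -0.52 for Rpl13 to 0.52 for Rps27. Many have near-identical copies elsewhere in the genome. Nor was any of 34 proteasome subunits called by either tool (7 higher and 7 lower at an unadjusted p below 0.05, median 0.04, and -0.04 without S51 replicate 2). Of 78 mitochondrial ribosomal proteins 5 fell (6.41%, against 6.73% of all genes) and none rose, while 63 were below 0 (median -0.23) and an unadjusted p was below 0.05 in 33 lower and 1 higher. Mrpl4 had 115, 141 and 95.6 CPM in S51 and 61.5, 55.2, 63.4 and 54.2 CPM in S51A and fell, and Mrps28 60.1, 66.1 and 59.1 CPM in S51 and 27, 35.2, 32.7 and 28.9 CPM in S51A (log2 difference -0.98 ± 0.12). Of 72 respiratory chain subunits Sdhd fell (-0.83), and Atp5j (0.60) and Atp5g3 (0.65) rose, neither of the last without S51 replicate 2 (list median -0.04).

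Where one direction of a list had no call in edgeR, DESeq2 made none in it either, apart from 1 of the Notch and Wnt genes. At an unadjusted edgeR p below 0.05 the uncalled direction held 5 of the p53 targets (higher), 4 of the matrix genes (lower) and 3 of the Notch and Wnt genes (lower). It held 2 genes each of the ATF4 targets, the uORF mRNAs, the eIF2 list and the DNA replication, mitosis, glycolysis and hypoxia, and RAS-MAPK lists. It held 1 each of the tRNA synthetases, epidermal differentiation genes and mitochondrial ribosomal proteins, and none of the cytokines and NF-kB targets, interferon-stimulated genes, chaperones or histones.

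**Figure D3:**
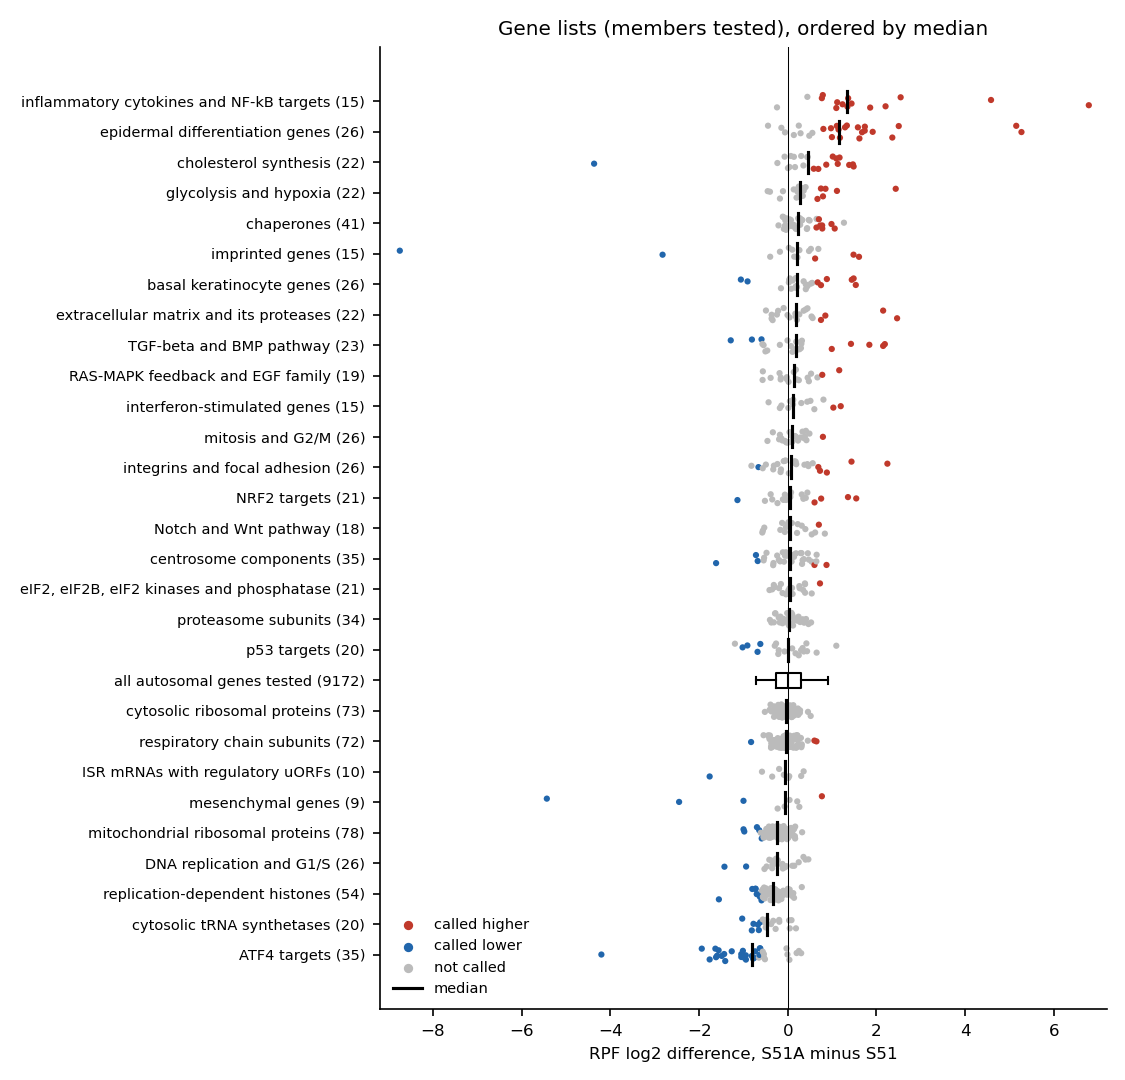
RPF log2 difference (S51A minus S51) of the tested members of 28 gene lists, each point a gene, with the number tested in parentheses and a black bar at the list's median. Red points were called higher and blue lower, and the box for all 9172 genes spans its quartiles with whiskers at the 5th and 95th percentiles. ATF4 targets have the lowest median (-0.81) and cytokines and NF-kB targets the highest (1.35).

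The genes with the largest differences were also taken over all genes, in a list or not. Among genes with more than 3 counts in some library of the lower group, the highest fitted difference was that of BC061237, with 0.354, 0.482 and 1.24 CPM in S51 and 37.3, 31.2, 32.3 and 26.3 CPM in S51A (log2 difference 5.24 ± 0.31 (SE), adjusted p = 1.21e-10). The prolactin family genes Prl8a9, Prl8a1 and Prl2c5, which encode placental hormones, had log2 differences of 5.23, 4.14 and 3.29. Prl2c5 had 26.5, 6.75 and 21.4 CPM in S51 and 189, 198, 181 and 180.3 CPM in S51A, and as Prl genes are close copies of one another their separate values are uncertain. Asprv1, a protease of the cornifying epidermis, had 2.47, 1.93 and 0.745 CPM in S51 and 18.6, 24, 14.5 and 14.2 CPM in S51A (log2 difference 3.47 ± 0.43). Bcl2l15, of the BCL2 family, had 9.19, 3.86 and 7.45 CPM in S51 and 71.3, 66.4, 57.6 and 60.3 CPM in S51A (log2 difference 3.16 ± 0.18). Gstm5 (3.05) and Gsta1 (3.01), glutathione transferases with close copies, Ang (2.81), Pglyrp3 (2.78) and Stra6, a receptor for retinol uptake (2.77), completed the 12 highest together with Il1rl2. Camk1d, a calcium-dependent kinase gene at the floor in S51, was at least 7.25-fold higher.

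In the other direction Rgma, a co-receptor of BMP signalling, had 24, 42 and 27.1 CPM in S51 and 0.466, 1.26, 0.828 and 1.62 CPM in S51A (log2 difference -4.63 ± 0.28 (SE), adjusted p = 1.48e-10). Pdzrn3, a ubiquitin ligase, had 27.9, 33.8 and 33.8 CPM in S51 and 3.26, 4, 4.14 and 2.63 CPM in S51A (log2 difference -3.19 ± 0.22), and Krt20, a keratin of simple epithelia, 126, 118 and 139.9 CPM in S51 and 17.7, 14.3, 20.7 and 21 CPM in S51A (log2 difference -2.80 ± 0.13). Serpine2, a protease inhibitor, had 52.3, 52.1 and 51.4 CPM in S51 and 10.7, 8.01, 12.8 and 10.5 CPM in S51A (log2 difference -2.34 ± 0.14). In each of these genes the highest S51A library was under the lowest S51 library by more than 3-fold. Hif3a (-2.86), Fam107a (-2.82), Gli2, a transcription factor of Hedgehog signalling (-2.73), Pid1 (-2.69), Nmnat3, of NAD synthesis (-2.60), and Robo3 (-2.30) were read at under 11 CPM in every library and fell. Several genes were at 3 or fewer counts in every S51A library. Cdkn1c, the cyclin-dependent kinase inhibitor p57 and an imprinted gene, had 13.4, 30.4 and 18.6 CPM in S51 and no count in any S51A library, at least 21.5-fold lower. Bhlhe41, Twist2 and Ctsc, the last encoding cathepsin C, were at least 9.22-fold, 8.51-fold and 8.32-fold lower. Of 15 imprinted genes tested 3 rose and 2 fell (20% and 13.3%, median 0.22), the others called being Igf2r (1.61), Zrsr1 (1.48), Cd81 (0.62) and Impact (-2.82).

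By share of all footprints the leading genes were other ones. Thbs1, the matrix glycoprotein thrombospondin 1, went from 498 ± 40.3 CPM (mean ± SD, n = 3) in S51 to 2213 ± 347 CPM (n = 4) in S51A. Cd44 went from 988 ± 161 to 2690.1 ± 105 CPM, Serpinb2, an inhibitor of plasminogen activators, from 335 ± 165 to 1869.7 ± 49 CPM, Hspb1 from 2681 ± 658 to 4198 ± 319 CPM, and Sfn, 14-3-3σ, from 2135 ± 163 to 3409 ± 206 CPM. The 5 with the largest loss of share were H2ax, Psat1, Ccnd1, Slc7a5 and Asns, and without S51 replicate 2 they were Psat1, H2ax, Asns, Slc7a5 and Nars, a check added after the values were seen. H2ax, a histone variant gene, went from 1889 ± 615 to 1003 ± 64.8 CPM, its S51 spread coming from replicate 2 (1582, 2598 and 1488 CPM in S51 and 979, 963, 1100.2 and 971 CPM in S51A).

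Differences in footprints went with differences in mRNA. Over 9140 genes the RPF and total RNA log2 differences correlated across genes at Pearson r = 0.879 and Spearman rho = 0.795, given as a description, since genes of one library share its depth and are not independent replicates. In total RNA, 1989 of 11353 autosomal genes were called (17.5%), 1273 higher (11.2%) and 716 lower (6.31%). Of the 834 genes called higher in RPF that were also tested in total RNA, 829 had the same sign there, 814 had an adjusted p below 0.05 and 556 were called. For the 615 called lower the numbers were 610, 575 and 302. No gene called in RPF was called in the opposite direction in total RNA. Median log2 differences of the genes called higher were 0.93 in RPF and 0.81 in total RNA, and of those called lower -0.79 and -0.58. For the ATF4 targets the medians were -0.81 in RPF and -0.79 in total RNA, for epidermal differentiation 1.16 and 1.12, for cytokines and NF-kB targets 1.35 and 1.28, and for cholesterol synthesis 0.45 and 0.52. Asns had a total RNA log2 difference of -0.94, Psat1 of -1.17, Atf4 of -0.58, Thbs1 of 2.05 and Krt20 of -3.36. In bulk samples fewer cells carrying an mRNA and less of it per cell cannot be told apart.

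Translation efficiency (TE), the change in footprints beyond that in mRNA, was tested as an interaction in one model over RPF and total RNA libraries. It was called for 8 of 9163 genes (0.0873%), 5 higher (0.0546%) and 3 lower (0.0327%), while 1336 genes had an unadjusted p below 0.05. Azin1, an antizyme inhibitor that sustains polyamine synthesis, had 92.6, 36.2 and 92.2 CPM in S51 and 145, 166, 141 and 168 CPM in S51A, with a TE log2 difference of 1.11 ± 0.19 (SE, adjusted p = 0.00817). In Azin1 and Ugdh S51A footprints lay above S51 footprints in every library while total RNA differed by -0.09 and 0.16 on the log2 scale. Ugdh, which makes UDP-glucuronate, had 21.2, 15 and 22.4 CPM in S51 and 42, 41.1, 50.9 and 41.5 CPM in S51A and a TE log2 difference of 0.93 ± 0.15 (adjusted p = 0.00341). Thap12 (0.84), Eif2s1 (0.78) and Pam, a peptide-amidating enzyme (0.62), were the other 3 higher. Impact, whose product holds back the activation of the eIF2 kinase GCN2, had 3.18, 3.38 and 3.23 CPM in S51 and 0, 0.211, 0.414 and 0.809 CPM in S51A. Its total RNA was 17.4, 18.1, 18.1 and 16.4 CPM in S51 and 13.2, 15.3, 14.7 and 17.3 CPM in S51A, nearly level, and its TE log2 difference was -2.72 ± 0.52 (adjusted p = 0.0213). 2410002F23Rik (-1.18) and Setd1b, a histone methyltransferase (-1.13), were the other 2 lower.

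TE calls depended on the libraries that entered the fit. With the vehicle libraries alone none was called by edgeR, with 963 genes at an unadjusted p below 0.05, and DESeq2 called 33. Without S51 RPF replicate 2, 6 genes were called, including Impact, Pam, Ugdh and Azin1 but not Eif2s1, and without S51 RPF replicate 3, 379. RPFs and total RNA were prepared from the same lysates by the study's methods, and a fit with the replicate number as a block over both (lysate replicate block) left 2 calls, Ugdh and Azin1, so that Impact, Eif2s1, Pam, Thap12, Setd1b and 2410002F23Rik were not called in it. The median SE of a TE log2 difference was 0.158, against 0.166 for RPF and 0.0575 for total RNA. The 95% interval of the TE difference lay within 1.5-fold either way for 5835 genes (63.7%) and within 2-fold for 8428 (92%). Of the 1454 genes called in RPF for which TE was tested, 617 had their interval within 1.5-fold and 1176 within 2-fold. For the others a TE difference of that size could lie undetected at this depth. None of the 35 ATF4 targets was called in TE, and their median TE log2 difference was -0.07.

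**Figure D4:**
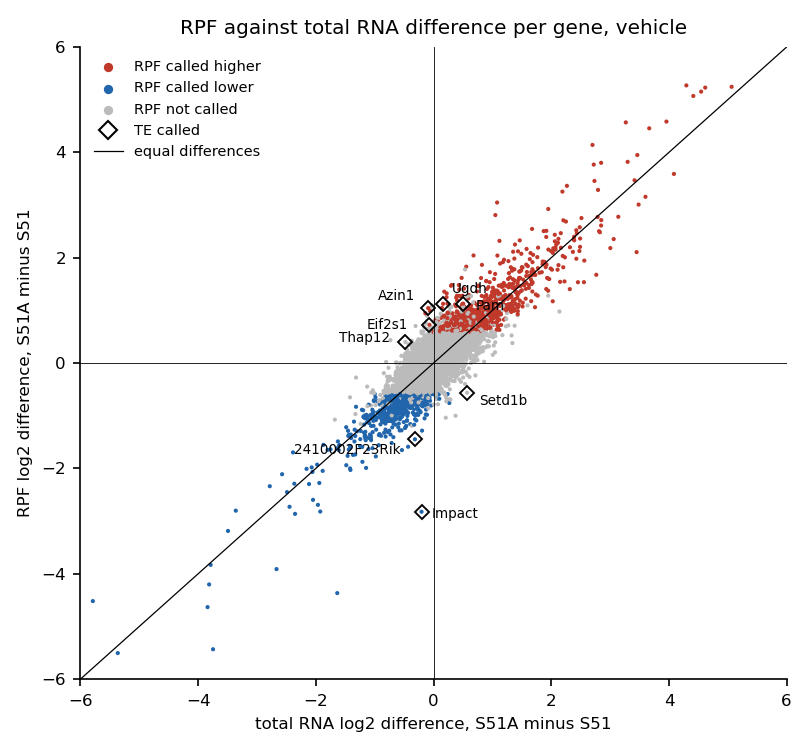
Log2 difference (S51A minus S51) in RPF against that in total RNA for genes tested in both, with the line of equal differences and with 4 genes outside the plotted range. Colours give the RPF call and diamonds the 8 genes called in TE, of which Ugdh and Azin1 were also called with the lysate replicate block. Most called genes lie along the line (Pearson r = 0.879 across 9140 genes), and Impact lies far below it, at -0.20 in total RNA and -2.82 in RPF.

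Bortezomib RPF libraries of the same lines shared no library with the vehicle groups, though they are not from independent lines. There 1632 of the 9172 genes were called between genotypes (17.8%), 923 higher in S51A (10.1%) and 709 lower (7.73%). Of the 839 genes called higher in vehicle, 796 had the same sign under bortezomib, 484 were called the same way and 3 the opposite way, and their median log2 difference was 0.76. Of the 617 called lower, 580 had the same sign, 313 were called the same way and 1 the opposite way (median -0.65). The ATF4 targets had a median of -1.12, with 28 of 35 lower. Asns had a log2 difference of -1.12 under bortezomib, Slc7a5 of -1.51, Krt20 of -2.99, Thbs1 of 2.16 and Cxcl5 of 3.05, all on the same side as in vehicle. Ddit3 and Atf4, which had -0.03 and -0.58 in vehicle, had -2.45 and -1.98 under bortezomib, and Eif2s1 had 0.29.

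The calls were spread unevenly over chromosomes. On chromosome 2, 18.2% of 771 tested genes were called higher and 3.37% lower, with a median log2 difference of 0.19 in RPF and 0.16 in total RNA. On chromosome 18 the shares were 20.3% and 2.03% of 246 genes, with medians of 0.23 and 0.11. Chromosome 9 leaned the other way, with 5.79% of 535 genes higher and 15.7% lower and medians of -0.17 and -0.20, as did chromosome 8, with 5.45% and 12.4% of 532 genes and medians of -0.12 and -0.11. Chromosome 2 took 6.71% to 7.08% of each S51 library's footprints and 8.33% to 8.41% of each S51A library's, and chromosome 9 took 6.12% to 6.48% and 5.61% to 5.72%. In runs of 60 neighbouring tested genes the lowest median was -0.51 (total RNA -0.60), over chr3:5560188-41040207, where 16 genes were called lower and none higher. The next lowest was -0.43 (total RNA -0.46), over chr9:21755434-43105718. The highest, 0.43 (total RNA 0.25), was over chr2:59852364-80660071, where 18 genes rose and 1 fell (coordinates of GRCm38.p6). Without S51 replicate 2 these 3 medians were -0.60, -0.45 and 0.30, that of chromosome 18 was 0.15, and 15 rather than 26 genes of chromosome 2 were called lower. The lean did not cover whole chromosomes. On chromosome 9 the first 5 runs, up to base 72363779, had medians from -0.43 to -0.25 and the 3 after it from 0.05 to 0.09. On chromosome 2 the first 9 runs, up to base 140170558, had medians from 0.14 to 0.43 and the last 3 from -0.15 to 0.02. Whether the cells' chromosome content differed was not tested.

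**Figure D5:**
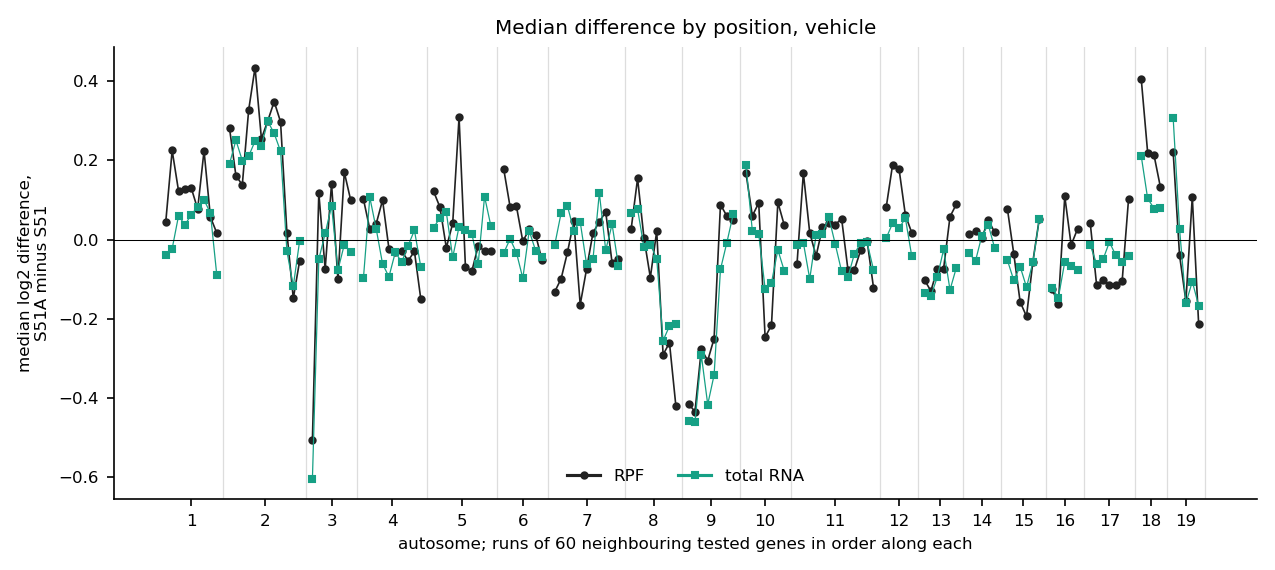
Median log2 difference (S51A minus S51) over runs of 60 neighbouring tested genes along each autosome, in RPF (black circles) and total RNA (green squares). In RPF the first 9 runs of chromosome 2 and all 4 of chromosome 18 lie above 0, and the first run of chromosome 3 and the first 5 of chromosome 9 below it, from -0.51 to 0.43 over all runs.

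After these medians were seen, the lists were also read outside chromosomes 2, 3, 8, 9 and 18. There 541 of 6638 genes were called higher (8.15%) and 399 lower (6.01%). Of 24 ATF4 targets 17 fell (median -0.88), and of 19 epidermal differentiation genes 12 rose (median 1.00). Of 11 cytokines and NF-kB targets 9 rose (median 1.12), and of 15 cholesterol synthesis genes 7 rose and 1 fell (median 0.35). Some other lists changed more. Matrix genes had 1 of 16 higher (6.25%, against 18.2% over all autosomes) and chaperones 3 of 30 (10%, against 17.1%). Integrins and focal adhesion genes had 3 higher and 1 lower of 19, with a median of -0.05 against 0.07. Glycolysis and hypoxia genes had 6 of 19 higher (31.6%, against 27.3%), and tRNA synthetases 3 of 12 lower (25%, against 30%).

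Median RPF differences varied little with coding length. Over 5 bins of coding length, from a median of 543 to one of 3609 bases, the median log2 differences were -0.01, -0.04, 0.01, 0.02 and 0.05. Over 5 bins of total RNA level the share of genes called higher went from 14.2% at the lowest level to 6.78% at the highest and the share called lower from 9.30% to 3.45%. Median TE log2 differences over the same bins were -0.08, -0.04, -0.01, 0.02 and 0.06, with a median SE of 0.285 in the lowest bin and 0.109 in the highest.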

How the data were processed

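Ribosome-protected fragments and total RNA were sequenced from S51 and S51A SCC cells given vehicle or bortezomib. The values are raw read counts per gene that the authors deposited, with RPFs counted in coding sequence. Per the file headers, rRNA reads were removed, duplicates were marked, repeats were masked, reads below mapping quality 50 were left out, and RPFs of 20 to 23 or 26 to 32 bases were kept. The submitters' processing notes name mm10, Bowtie2, featureCounts and DESeq2, while the study's methods name plastid for the counting, and no versions are given. If duplicates were marked without molecular identifiers, the counts of strongly footprinted genes can be lowered. Uniquely placed reads undercount near-identical copies.

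Columns were assigned by their labels. The labels do not say whether libraries came from separate cultures, so p-values measure the spread between these samples, which may be technical. Genes were filtered with edgeR 4.0.16 filterByExpr (10 counts, total of 15), scaled by TMM and fitted by quasi-likelihood with 1 coefficient per group over all 4 groups (R 4.3.3). TE was the interaction over all 31 libraries. Adjustment was by Benjamini-Hochberg over all tested genes of every chromosome, a call needed an adjusted p below 0.05 and a fold above 1.5, and DESeq2 1.42.0 was an alternative. Other alternatives were the scaling, the filter, the fold, the samples fitted, replicate blocks and leaving out each library. The scripts were tested on simulated data. For genes with 3 or fewer counts in every library of one group, folds are bounds against 3 counts in each library of that group, which cover counting error only. There were 34 such autosomal genes. They passed the filter through other libraries, so their direction was largely set by how they entered. Names and positions came from RefSeq (GRCm38.p6), which matched 20687 of 20704 IDs. Named genes were Eif2s1, the 12 largest called differences each way with groups that did not overlap, the 5 largest bounds each way, genes called in TE, the 5 largest differences in share each way, and called or extreme members of the lists. Some genes these rules name are not reported here, although they stay in the counts and medians. The members and lists were chosen with earlier results of these data known. RPF libraries held 1038826 to 4902237 counts and total RNA libraries 18758668 to 22994713, which sets the larger errors of RPF. No column of another sample was present.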

Additional observations from a re-analysis of the deposited data

Results flagged for a closer look

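The genotype difference in footprints itself differed between vehicle and bortezomib, by an interaction term in the edgeR fit, for 16 of the genes given here. Each value is the S51A minus S51 log2 difference in vehicle minus that under bortezomib. Among ISR genes it was 2.42 for Ddit3, 2.115 for Ppp1r15a, 1.592 for Chac1, 1.418 for Atf5, 1.403 for Atf4, 1.391 for Vegfa, 0.9312 for Ifrd1 and 0.5893 for Slc38a2. For these genes the S51A minus S51 difference was lower under bortezomib than in vehicle. Among genes called higher in vehicle it was 2.722 for Ovol1, 1.913 for Cspp1, 1.403 for Tnfaip3, 1.142 for Nfkbia and 0.8015 for Nusap1. For H2aw, lower in both, it was 0.7723, and for Hk2, not called in vehicle, 0.7858. Rpl13 went the other way, at -0.7839. Over the lists, 28 of 73 cytosolic ribosomal protein genes had a called negative value and none a positive one, 11 of 54 histones and 6 of 26 mitotic genes a positive one and none a negative one, against 81 positive and 93 negative of all 9172.

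In 19 of the named genes 1 of the 4 S51A vehicle libraries lay far from the other 3 in RPF CPM. With groups of 4, chance marks about 1 group in 20, and the 19 were not set against the number of genes screened. Twist2 and Bhlhe41 had 3 or fewer counts in every S51A library, where such a distance means little. S51A replicate 3 was the high one for Ugdh (50.93), H2ax (1100), Icam1 (7.039), Tgm1 (10.77), H4c2 (204.1), Klk10 (392.1) and Bhlhe41 (0.8282), and the low one for Nars (616.1). Replicate 1 was high for Ang (8.392), Fam107a (2.331), 2410002F23Rik (12.59), Cdt1 (101.2), Mvk (13.52) and Eif2ak4 (21.91), and replicate 2 for Hk2 (119.5). Replicate 4 was high for Twist2 (0.4047), Nupr1 (4.452) and Msmo1 (302.5) and low for Ier3 (55.65).

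Outside the autosomes, all listed Y-linked genes together held 203 to 538 footprints per S51A vehicle library but no more than 2 per S51 vehicle library. The 4 of them that were tested were all called higher. Of 280 tested X-linked genes 26 were called higher and 10 lower, with a median log2 difference of 0.15.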

How the results depend on the processing

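All 1456 RPF calls kept their sign under every alternative in which they were tested, and no value of a named gene reversed. Without S51 replicate 2 the list medians changed sign for mesenchymal genes (0.07), centrosome components (-0.0015) and proteasome subunits (-0.04). The number of RPF calls ran from 1269 (without S51 replicate 2) to 1816 (without S51 replicate 3) when 1 library was left out, and was 1422 with DESeq2, which shared 1366 of them. A mean of at least 50 counts left 414 higher and 437 lower, turning the excess to lower calls, as did leaving out S51 replicate 3 (902 and 914), and a fold above 2 left 368 higher and 167 lower. In total RNA a fold above 2 left 614 higher and 270 lower. Under bortezomib a mean of at least 50 counts gave 542 higher and 468 lower, and a fold above 2 388 and 213. The lower ATF4 targets were 14 at a fold above 2, and a mean of at least 50 counts left 10 epidermal differentiation genes and 7 cytokine and NF-kB genes higher. Some of these counts are lower because fewer genes were tested or the threshold was higher.

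TE calls varied most. DESeq2 gave 15 higher and 18 lower, the vehicle groups alone 0 and 0, a fold above 2 1 higher, and genes called in RPF whose difference exceeded that in total RNA by 1.5-fold 90 and 63. Leaving out 1 library gave 2 to 175 higher and 0 to 204 lower, the highest of both without S51 RPF replicate 3. The cause was not tested.

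In RPF the replicate numbers did not clearly pair S51 with S51A libraries. Same-numbered S51 and S51A RPF libraries had correlations of deviations of 0.0273, 0.084 and -0.158, and other pairs -0.296 to 0.298. In total RNA the same-numbered pairs had 0.131, 0.0124, 0.0636 and 0.168, and other pairs -0.167 to 0.0912. The numbers may therefore pair samples there, which was not tested. With a replicate block total RNA gave 1276 calls higher and 720 lower, against 1273 and 716 without it. A replicate block gave 1511 RPF calls, of which 1365 were shared with the fit without it, and 10 TE calls. A lysate replicate block, pairing RPF with total RNA by number, gave 2 TE calls higher and 0 lower. By number, RPF and total RNA libraries had correlations of -0.056, -0.0067 and 0.0466 in S51, but of 0.114 to 0.346 in S51A, all 4 above 0.1 and each the highest for its RPF library, so that the numbers may pair the lysates of S51A.

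Of 187 named or listed genes called in RPF, 144 kept the call under every alternative in which they were tested, other than a fold above 2. A gene that an alternative's filter left out does not count as lost. At a mean of at least 50 counts 826 of all 1456 RPF calls were tested, so genes with few counts were not checked there. Irf7 lost it under 8 alternatives, and Cspp1 and Plk4 under 7. The median SE of 0.166 (log2) limits what RPF differences can be seen.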
